A study of Homo sapiens with 6 samples.

Results

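The insulin-like growth factor (IGF) axis was followed through 10 genes: the ligand IGF1, the receptors IGF1R and IGF2R, the receptor substrates IRS1 and IRS2, and the binding proteins IGFBP2, IGFBP3, IGFBP4, IGFBP5 and IGFBP6. They were taken by symbol from the 27234 rows of the deposited count table, and all 10 were found. RNA came from A673, an established human line of Ewing sarcoma, a tumour driven by the fusion EWS-FLI1. An siRNA to FLI1 was given to the cells of 3 libraries (siFLI1) and a scrambled siRNA to those of 3 others (siControl), each 48 h before RNA was taken. Both groups carried the fusion and grew in the same serum-containing medium. The design therefore models the lowering of FLI1 transcripts in 1 cell line. The sequence that the siRNA targets was not stated in the labels. Libraries read the 3' ends of polyadenylated RNA.

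IGF1 and IGF2 signal through the receptor tyrosine kinase IGF1R, which phosphorylates the docking proteins IRS1 and IRS2 and so engages the PI3K-AKT-mTOR and RAS-MAPK branches. IGF2R binds IGF2 without such a kinase and carries it to lysosomes. The IGF-binding proteins are secreted and hold the ligands outside the cell, which can keep them from the receptor or prolong their life. Ewing sarcoma cells are known to depend on IGF1R signalling, and antibodies against the receptor have been tried in patients.

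Counts assigned to genes ran from 417145 in siFLI1 replicate 3 to 1893606 in siFLI1 replicate 1. They made up 10.1% of the header total for siFLI1 replicate 3 and 41.2% to 61.0% for the rest. On principal components siFLI1 replicate 3 and siControl replicate 1 each stood apart. The target FLI1 had a mean of 64.8 CPM in siControl and 28.5 CPM in siFLI1, without overlap, and missed the threshold (log2 fold change −1.16 ± 0.36, SE; edgeR adjusted p = 0.17). EWSR1, the fusion partner, differed by a log2 fold change of −0.04 ± 0.25. All 9 listed Ewing sarcoma markers were detected and tested, and all 9 had a negative log2 fold change (median −1.10). Over all 9420 tested genes 4668 had a negative value. Of the 9 markers 2 passed. CD99 (−0.28), NKX2-2 (−0.91), JAK1 (−0.07) and CCND1 (−1.18) did not, and their groups overlapped.

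Of the 10 genes, 9 had enough counts to be tested. IGFBP5 and IGFBP3 rose and IRS2 fell (edgeR, adjusted p below 0.05 by the Benjamini-Hochberg method). Over all 9420 tested genes 1.45% passed in either direction, 1.34% higher and 0.117% lower. The 10 genes were chosen with earlier results of these data known, so their share is a description. Without both libraries that stood apart, a fit chosen after seeing the data, these 3 genes were again the ones called, but IRS2 was not called in any of the 6 fits that left out 1 library, nor with the replicate number as a block (edgeR adjusted p = 0.108), with glmTreat against a 1.5-fold change or at a threshold of 0.01. The median log2 fold change of the 9 tested genes was 0.35, against 0.01 over all tested genes. The ligand IGF1 had a lower mean in siFLI1 and did not pass, and the intervals of the receptors IGF1R and IGF2R spanned 0.

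The upstream sequences of the 3 genes that passed are printed because the genes moved in opposite directions under 1 treatment. Each is the 250 bases before the transcription start in RefSeq's GRCh38.p14 table, read 5′ to 3′ on the gene's strand, which is minus for all 3. Capitals mark matches to the motifs named after them. IGFBP5 is at chr2:216695550-216695799, IGFBP3 at chr7:45921273-45921522 and IRS2 at chr13:109786584-109786833.
IGFBP5: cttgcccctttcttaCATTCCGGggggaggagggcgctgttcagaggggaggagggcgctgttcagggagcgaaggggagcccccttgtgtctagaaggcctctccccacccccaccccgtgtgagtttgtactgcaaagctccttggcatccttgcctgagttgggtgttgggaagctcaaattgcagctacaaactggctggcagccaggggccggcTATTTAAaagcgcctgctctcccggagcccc
IGFBP3: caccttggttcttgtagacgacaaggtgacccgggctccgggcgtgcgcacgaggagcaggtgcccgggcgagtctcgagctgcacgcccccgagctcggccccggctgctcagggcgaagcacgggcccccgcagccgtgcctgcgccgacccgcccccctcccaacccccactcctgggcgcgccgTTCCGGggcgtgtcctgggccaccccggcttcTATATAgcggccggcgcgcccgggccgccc
IRS2: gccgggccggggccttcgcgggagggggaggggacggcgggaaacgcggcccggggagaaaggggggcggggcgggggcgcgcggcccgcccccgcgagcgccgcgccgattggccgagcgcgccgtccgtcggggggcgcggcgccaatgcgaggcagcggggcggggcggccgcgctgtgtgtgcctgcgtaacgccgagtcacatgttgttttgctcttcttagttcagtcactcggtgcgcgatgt

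The motifs were searched on both strands of 35116 such windows, of which 13 belonged to the 10 genes. The ETS-type core CCGGAA lay on the reverse strand 233 bases before the start of IGFBP5 and 62 bases before that of IGFBP3, and was not in the IRS2 window. It occurred in 14.5% of all windows and in those of IGFBP5, IGFBP3, IGFBP6, IGF2R and IRS1. In IGFBP5 it overlaps a match to GGAATG, the core bound by TEAD factors, which 11.9% of windows hold. TATA-like runs began 31 bases before the start of IGFBP5 (TATTTAA, in 4.17% of windows) and 30 bases before that of IGFBP3 (TATATA, in 3.73%). IGFBP4 held TATAAA (10.7%). The tandem GGAAGGAA (3.06%), of the kind that EWS-FLI1 binds in repeats, was in none of the 13 windows. The FOXO core TGTTTAC (2.98%) was in windows of IGF1 and IGFBP6. GC content was 76.4% in the IRS2 window, 76.0% in that of IGFBP3 and 61.2% in that of IGFBP5, with a median of 58.0% over all windows. These matches describe letters in a window and were not tested for binding.

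IGF1, the secreted ligand (chromosome 12, 102395867 to 102480645, minus strand, hg38), was detected in every library. Replicates 1, 2 and 3 gave 68.9, 34.6 and 26.5 CPM for siControl and 25.7, 14.0 and 26.8 CPM for siFLI1, with library sizes scaled by the TMM method of edgeR. The siControl replicate 1 value was far above all others, and siControl replicate 3 lay just below siFLI1 replicate 3, so the groups overlapped. On the log2 scale IGF1 differed by −1.02 ± 0.44 (SE; 95% interval −1.97 to −0.07; edgeR adjusted p = 0.424). Without siControl replicate 1 it was −0.53, and without siFLI1 replicate 2 it was −0.73. IGF2, the other ligand of IGF1R, had 0 counts in each of the 6 libraries, which allows up to 1.58 CPM in the deepest and 7.19 CPM in the shallowest. Insulin was likewise at 0. These limits cover counting error only.

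The receptors were low in counts. IGF1R (chromosome 15, 98648539 to 98964530, plus strand) was at 10.2, 7.61 and 11.1 CPM in siControl and 11.2, 7.97 and 21.4 CPM in siFLI1, from 8 to 20 counts a library. The highest value, in siFLI1 replicate 3, rests on 8 counts, and the other 5 libraries lay close together. On the log2 scale IGF1R differed by 0.35 ± 0.56 (SE; 95% interval −0.84 to 1.55), and by 0.00 without siFLI1 replicate 3. IGF2R (chromosome 6, 159969099 to 160111502, plus strand), which clears IGF2 and sorts lysosomal enzymes, was at 16.7, 12.9 and 17.1 CPM in siControl and 14.0, 14.6 and 10.7 CPM in siFLI1. The groups overlapped, with a log2 fold change of −0.20 ± 0.47 (95% interval −1.21 to 0.80). A 2-fold rise of IGF1R and a 2-fold fall of IGF2R lie within these intervals. The rows of IRAIN and AIRN overlap IGF1R and IGF2R on the opposite strand and had at most 2 counts in any library, and LOC729603, within IGF2R on its own strand, at most 1. The insulin receptor INSR had 26 counts in siFLI1 and 16 in siControl, with 1.18 ± 0.72 (SE; edgeR adjusted p = 0.621), and 1.78 without siControl replicate 1.

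IRS2 (chromosome 13, 109753837 to 109786567, minus strand), a docking protein for the activated receptors, fell. Replicates 1, 2 and 3 gave 183, 157 and 197 CPM for siControl and 76.0, 81.7 and 85.7 CPM for siFLI1. The groups were far from overlap, and the siFLI1 libraries lay close together. The siFLI1 mean was 45.4% of the siControl mean, with a log2 fold change of −1.15 ± 0.25 (SE; 95% interval −1.68 to −0.61; edgeR adjusted p = 0.036). By exact permutation of the libraries p was 0.1 (two-sided), which is the lowest value this design allows. Leaving out each library in turn, the log2 fold change ran from −1.08 to −1.23. The call was lost in all 6 of those fits, with adjusted p from 0.0552 without siControl replicate 1 to 0.196 without siFLI1 replicate 2. In the fit without both libraries that stood apart IRS2 was called at −1.17 (edgeR adjusted p = 0.0294).

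IRS1 (chromosome 2, 226731317 to 226798790, minus strand), the related docking protein, was at 15.6, 25.8 and 20.5 CPM in siControl and 21.2, 38.5 and 29.5 CPM in siFLI1. The groups overlapped. On the log2 scale it differed by 0.53 ± 0.41 (SE; 95% interval −0.36 to 1.41; edgeR adjusted p = 0.728). The IRS1 interval lies above that of IRS2, but the difference between these genes was not tested. IRS4, another substrate gene, had 0 counts in all 6 libraries.

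**Figure D1:**
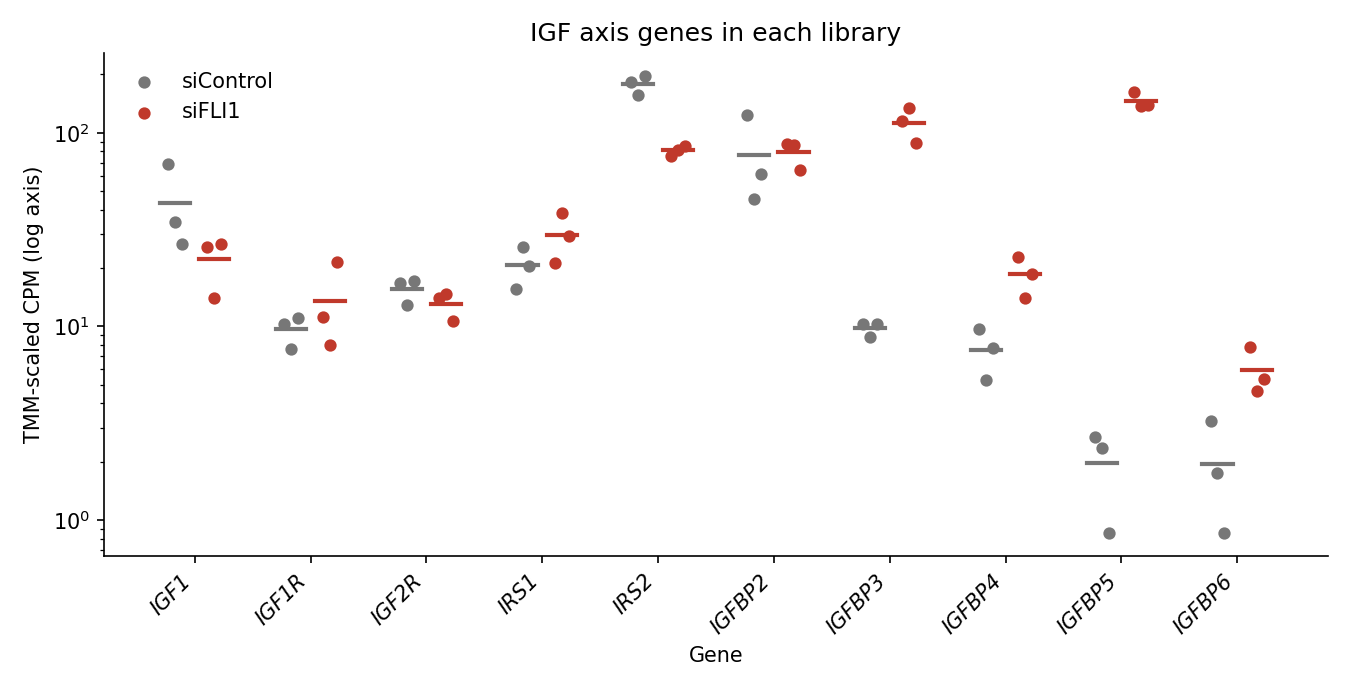
TMM-scaled CPM (log axis) of the 10 IGF axis genes in each library, siControl in grey and siFLI1 in red, with bars at the mean of 3 libraries. IGFBP5, IGFBP3, IGFBP4, IGFBP6 and IRS2 show no overlap between the groups, and IGF1 and IGFBP2 have their highest point in siControl replicate 1.

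The binding proteins separated into genes that rose and genes that did not pass. IGFBP5 (chromosome 2, 216672105 to 216695549, minus strand), which binds matrix and is abundant in bone and connective tissue, was at 2.69, 2.34 and 0.85 CPM in siControl, from 5, 4 and 1 counts. The siFLI1 libraries gave 162, 138 and 139 CPM, from 290, 208 and 52 counts. The lowest siFLI1 library exceeded the highest siControl library many times over. The fitted rise was 67.6-fold, a log2 fold change of 6.08 ± 0.40 (SE; 95% interval 5.22 to 6.94; edgeR adjusted p = 1.64e-06). It ranked 2 among the 9420 tested genes by p and 5 by the size of the rise.

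IGFBP3 (chromosome 7, 45912245 to 45921272, minus strand), the main IGF carrier of blood, was at 10.2, 8.78 and 10.3 CPM in siControl, which lay close together. The siFLI1 libraries gave 115, 134 and 88.4 CPM, all far above siControl. The rise was 11.6-fold, a log2 fold change of 3.54 ± 0.33 (SE; 95% interval 2.83 to 4.25; edgeR adjusted p = 2.74e-05). Whichever of the 6 libraries was left out, IGFBP5 and IGFBP3 were called, with ranges of 5.81 to 6.31 and 3.39 to 3.67 on the log2 scale. For each of them the exact permutation test gave p = 0.1, its smallest.

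IGFBP4 (chromosome 17, 40443424 to 40457730, plus strand), a binding protein that holds IGFs away from the receptor until it is cut, was at 9.69, 5.27 and 7.69 CPM in siControl. It was at 22.9, 14.0 and 18.7 CPM in siFLI1, without overlap, a property of 16.6% of all tested genes. On the log2 scale it differed by 1.28 ± 0.51 (SE; 95% interval 0.18 to 2.39), which was not called (edgeR adjusted p = 0.369). IGFBP6 (chromosome 12, 53097652 to 53102344, plus strand), which prefers IGF2, had 6, 3 and 1 counts in siControl and 14, 7 and 2 in siFLI1, too few for the low-count filter. In CPM it was at 3.23, 1.76 and 0.85 in siControl and 7.83, 4.65 and 5.36 in siFLI1, again without overlap. With no filter its log2 fold change was 1.51 (edgeR adjusted p = 0.729).

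IGFBP2 (chromosome 2, 216633404 to 216664435, plus strand) did not follow IGFBP5, its neighbour. It was at 124, 45.7 and 61.5 CPM in siControl and 87.8, 86.4 and 64.3 CPM in siFLI1, with siControl replicate 1 highest and siControl replicate 2 lowest of all. The difference was 0.06 ± 0.35 on the log2 scale (SE; 95% interval −0.70 to 0.82; edgeR adjusted p = 0.97), and its sign turned with the scaling and with the libraries kept, from −0.21 to 0.56 over the fits without 1 library. IGFBP2 and IGFBP5 lie 7669 bases apart with their 3' ends facing. On chromosome 7 IGFBP1 lies 18576 bases from IGFBP3 and had 1 count in all 6 libraries together. Summed over IGFBP2 to IGFBP6, the level was 150, 63.8 and 81.2 CPM in siControl and 395, 377 and 316 CPM in siFLI1. These sums compare libraries and not genes. Their largest parts in siFLI1 were IGFBP5 and IGFBP3, with means of 147 and 112 CPM, against 1.96 and 9.76 CPM in siControl.

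**Figure D2:**
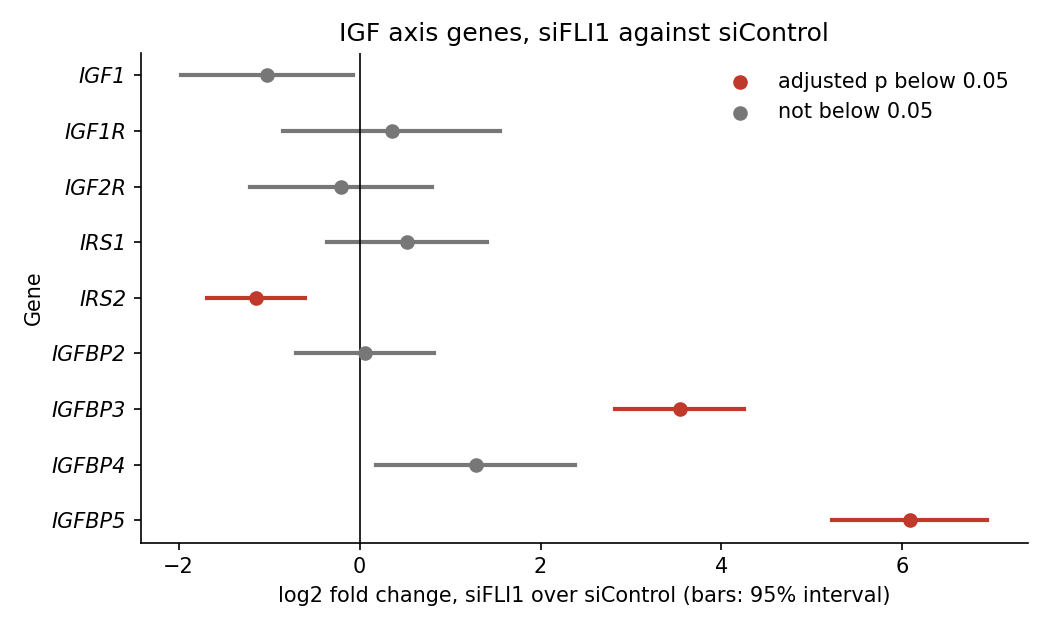
Log2 fold change of siFLI1 over siControl with its 95% interval for the 9 tested IGF axis genes, in red where the edgeR adjusted p was below 0.05. IGFBP5 at 6.08, IGFBP3 at 3.54 and IRS2 at −1.15 passed, and the intervals of IGF1R, IGF2R, IRS1 and IGFBP2 span 0.

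IGFBP3, IGFBP5 and the other binding proteins are also made by fibroblasts. Of 10 listed markers of fibroblasts and pericytes, 7 were tested and 4 rose, COL1A1, COL1A2, COL3A1 and ACTA2. The summed level of the 10 ran from 2436 to 2749 CPM in siFLI1 and from 855 to 1054 CPM in siControl. By group mean the largest part in siFLI1 was COL1A2, at 1246 CPM against 328 CPM for siControl. DCN, LUM and PDGFRA were below the low-count filter, each with a mean below 5 CPM in both groups, though PDGFRA reached 13.5 CPM in siControl replicate 1. THY1, PDGFRB and RGS5 were tested and did not pass. THY1 averaged 269 CPM in siFLI1 and 335 CPM in siControl. PDGFRB averaged 51.3 and 15.3 CPM, without overlap (edgeR adjusted p = 0.117). Of the 9 Ewing sarcoma markers, 2 fell, the nuclear receptor gene NR0B1 (log2 fold change −1.43 ± 0.30, SE; edgeR adjusted p = 0.025) and the kinase gene PRKCB (−1.17 ± 0.26; 0.0369). DESeq2 called 4 and limma-voom 3, and 6 were lower at an unadjusted p below 0.05 in edgeR. Among all 9420 tested genes 389 were lower at such a p. The summed level of the 9 ran from 1320 to 2079 CPM in siFLI1 and from 2901 to 4056 CPM in siControl. This sum moved opposite to that of the fibroblast list. By group mean its largest part was the cyclin gene CCND1, at 2042 CPM for siControl against 894 CPM for siFLI1. The CCND1 groups overlapped and it did not pass (edgeR adjusted p = 0.275), so the sum leans on a gene that was not called. All 9 markers had a negative log2 fold change, and 5 showed no overlap, a property of 16.6% of all tested genes. The part of the genes of either list in the rise of the binding proteins was not tested. All libraries came from the A673 line, so the lists describe transcripts of that line. Proportions of cell types were not measured, and bulk RNA gives no level per cell. Of 9 listed markers of blood and endothelial cells 1 was tested, CD68. It averaged 62.5 CPM in siFLI1 and 49.2 CPM in siControl and did not pass. PTPRC, below the low-count filter, had 16 counts in siFLI1 replicate 3, 6 in siControl replicate 3 and 0 in the other libraries. Of 7 epithelial markers KRT5, KRT14 and KRT19 were at 0 and the 2 tested did not pass. EPCAM, also below the filter, had 9 counts in siControl replicate 3 and at most 1 in any other library.

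Of the other binding-protein family, IGFBP7 (chromosome 4, 57031071 to 57110385, minus strand), a secreted protein with low affinity for IGFs, rose. It was at 0.54, 1.76 and 9.40 CPM in siControl, from 1, 3 and 11 counts, and at 34.7, 39.2 and 26.8 CPM in siFLI1, without overlap. The rise was 3.26 ± 0.70 on the log2 scale (SE; 95% interval 1.76 to 4.76; edgeR adjusted p = 0.0322). It reached 4.81 without siControl replicate 3 and 2.65 without siControl replicate 1, and the call was lost in 4 of the 6 fits without 1 library (highest adjusted p = 0.201, without siControl replicate 2). The row overlaps POLR2B and IGFBP7-AS1 on the opposite strand. IGFBP7-AS1 had 8 counts in siControl replicate 3 and at most 1 in any other library, so the library with the highest siControl value of IGFBP7 was also the highest for its antisense partner. KAZALD1 was the 1 other tested gene of this list, and HTRA1 had 17 counts in siFLI1 and 3 in siControl.

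Proteases and their inhibitors set how much ligand binding proteins hold. Of 7 listed, 4 were tested. By edgeR, DESeq2 and limma-voom alike 0 passed, and 0 had an unadjusted p below 0.05 in edgeR. PAPPA, the protease that cuts IGFBP4, averaged 91.8 ± 25.8 CPM with siFLI1 and 65.3 ± 19.5 CPM with siControl (SD, n = 3), and its log2 fold change was 0.46 ± 0.32 (SE). STC1, a glycoprotein that inhibits PAPPA, was at 20.7 ± 10.02 and 10.02 ± 6.16 CPM, with 1.16 ± 0.56 (edgeR adjusted p = 0.484), and 1.74 without siControl replicate 3. The 3 IGF2 mRNA-binding proteins were all tested, and 0 passed by edgeR, DESeq2 and limma-voom alike, with 0 at an unadjusted p below 0.05 in edgeR. IGF2BP1 was at −0.46 ± 0.40 and IGF2BP3 at 0.55 ± 0.52.

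Downstream of the receptor, 0 of 14 tested adapters, 0 of 12 tested PI3K-AKT genes, 0 of 14 tested mTOR genes and 0 of 9 tested RAS-MAPK genes passed in edgeR. Their median log2 fold changes were −0.05, 0.21, −0.03 and −0.10. At an unadjusted p below 0.05, a mark that 10.8% of all tested genes reached, 1 adapter and 1 PI3K-AKT gene were higher, 2 mTOR genes were higher and 1 lower, and 0 RAS-MAPK genes had such a p. Of the 4 lists DESeq2 called 1 gene and limma-voom 0. The mTOR gene that was lower was EIF4EBP1, which encodes the translation inhibitor 4E-BP1 that mTOR phosphorylates. It was at 111, 87.8 and 107 CPM in siControl and 52.0, 49.2 and 34.8 CPM in siFLI1, without overlap. Its log2 fold change of −1.12 ± 0.28 (SE) lay just outside the threshold (edgeR adjusted p = 0.0744), and DESeq2 called it (0.0469). It was called in 2 of 15 alternative fits. In the 6 fits without 1 library it was called in 0 (edgeR adjusted p from 0.155 to 0.27).

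DDIT4, a stress-induced inhibitor of mTOR complex 1, was at 0.87 ± 0.32 (edgeR adjusted p = 0.298). It was called at 1.35 without both libraries that stood apart (0.0291), the 1 call in 15 alternative fits. SOCS3, a feedback inhibitor that binds IRS proteins, was at 7.54, 10.5 and 1.71 CPM in siControl and 20.1, 25.2 and 16.1 CPM in siFLI1, without overlap. Its log2 fold change was 1.61 ± 0.58 (edgeR adjusted p = 0.288). PIK3CA, the catalytic subunit of PI3K, was at 0.80 ± 0.37 (adjusted p = 0.462), also without overlap. The adapter GRB2 was at −0.43 ± 0.29, the kinase GSK3A at −1.03 ± 0.63 and NRAS at −0.51 ± 0.32.

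FOXO factors are shut out of the nucleus when AKT is active, and IRS2 is a known FOXO target. Of 18 listed factors and targets 10 were tested and 0 passed by edgeR, DESeq2 and limma-voom alike, with 1 higher in edgeR at an unadjusted p below 0.05 and a median log2 fold change of 0.23. FOXO1 and FOXO3 were below the low-count filter. The cyclin CCNG2 was at 1.68 ± 0.70 (SE; edgeR adjusted p = 0.4) and the transcriptional cofactor CITED2 at −0.49 ± 0.27. The highest CCNG2 level, 50.9 CPM in siFLI1 replicate 3, rests on 19 counts, and the log2 fold change was 0.85 without that library.

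Over these 9 lists together, 69 of 110 genes were tested, and IGFBP7 was the 1 called in edgeR. Of all 9420 tested genes, 1.45% passed in either direction. The median log2 fold change of the 69 was 0.16, against 0.01 over all tested genes.

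**Figure D3:**
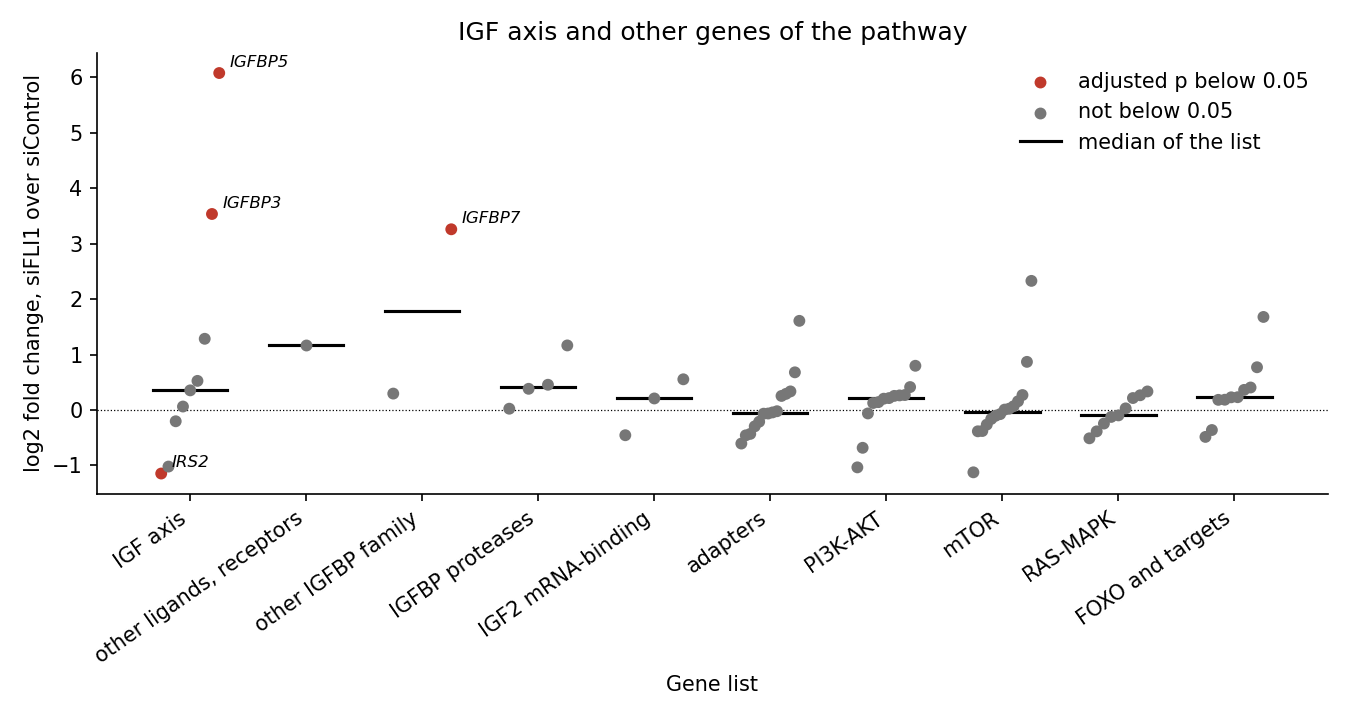
Log2 fold change of siFLI1 over siControl for the tested IGF axis genes and the tested genes of 9 other lists of the pathway, with a bar at each list's median and genes with an edgeR adjusted p below 0.05 in red and named. IGFBP5, IGFBP3 and IGFBP7 lie above 3, and the medians of the lists downstream of the receptor lie between −0.10 and 0.23.

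Around the 3 called genes, neighbours mostly did not pass. TNS1, 1104239 bases from IGFBP5, was at 0.18 ± 0.35 (SE) on the log2 scale, and TBRG4 and HUS1, on either side of IGFBP3, at 0.34 ± 0.42 and −0.29 ± 0.48. Beside IRS2, the collagen IV gene COL4A1, 362390 bases away, rose, with means of 65.9 ± 4.06 CPM for siControl and 181 ± 41.2 CPM for siFLI1 (SD, n = 3; log2 fold change 1.46 ± 0.27, SE; edgeR adjusted p = 0.00971). The cytokine gene TNFSF13B on the other side was at −0.97 ± 0.44 (adjusted p = 0.447).

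Likeness of pattern was measured as the root mean square difference of log2(CPM + 1) over the 6 libraries, after centring each gene, among 8338 other tested genes with a mean of at least 10 CPM. Closest to IGFBP3 were the peptide hormone gene ADM (0.21), the chemokine CXCL1 (0.24) and the EGF receptor ligand EREG (0.28). Closest to IGFBP5 were COL6A3 (0.32), the laminin chain LAMA4 (0.55) and the carboxypeptidase CPA4 (0.56). In siControl COL6A3 averaged 1.02 CPM and CPA4 0 CPM, so the added 1 CPM weighs on these distances. The fitted log2 fold change of CPA4 was 9.88, against 6.08 for IGFBP5. Closest to IRS2 were BTBD1 (0.13), the nuclear envelope gene NEMP1 (0.15) and the replication helicase gene MCM4 (0.15). Of these 9 genes, those like IRS2 did not pass the test themselves (edgeR adjusted p from 0.0763 to 0.138).

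**Figure D4:**
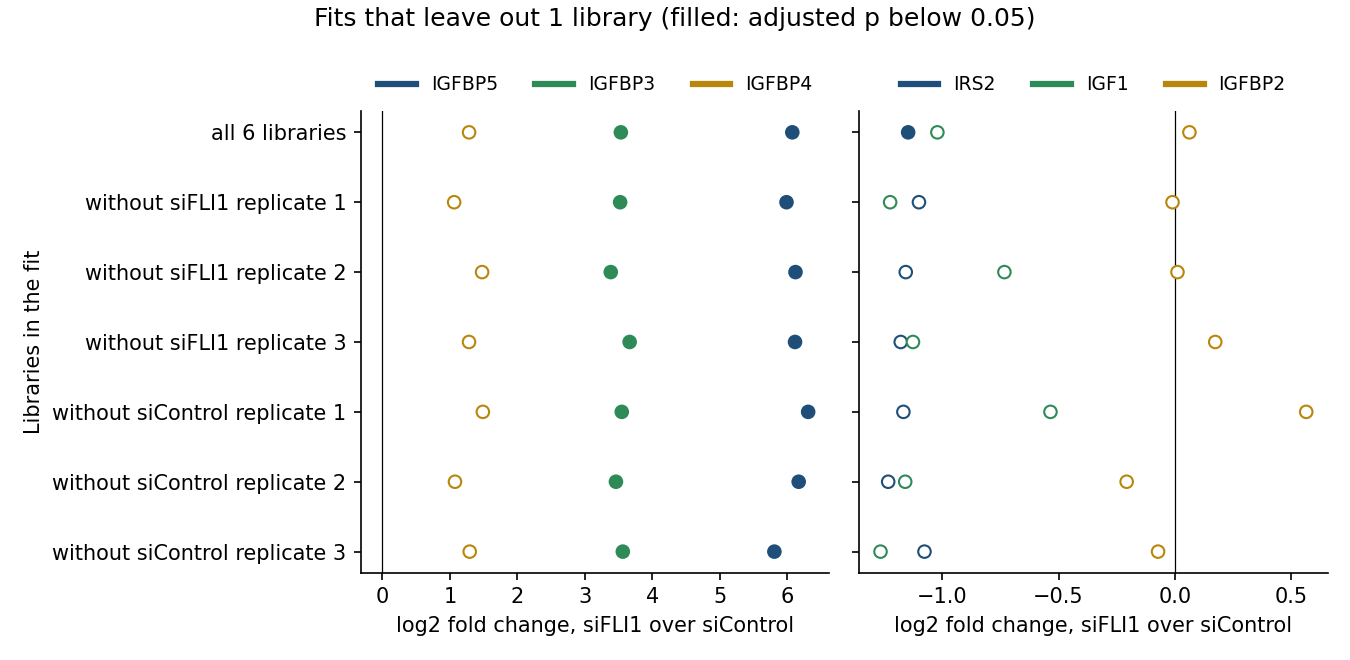
Log2 fold change of 6 IGF axis genes in the fit of all 6 libraries and in fits that leave out 1 library, filled where the edgeR adjusted p was below 0.05. IGFBP5 and IGFBP3 stay filled throughout, IRS2 is filled in the fit of all libraries only at nearly the same value, and IGF1 moves to −0.53 without siControl replicate 1.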

How the data were processed

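The authors deposited raw counts per gene over exons for 6 libraries. The labels' protocols describe a bulk form of MARS-seq with molecular barcodes. The submitters' processing notes name bcl2fastq, HISAT 0.1.5, HOMER and hg38, with no role or order. Collapsing of barcodes and use of strand are not stated, so copies made by PCR and reads of antisense genes may be counted. Separate cultures are not stated either, so p-values measure the spread between libraries, which may be technical.

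Genes kept by filterByExpr (minimum count 10, minimum total 15) were scaled by TMM and tested with edgeR 4.0.16 under R 4.3.3 (robust glmQLFit, then glmQLFTest, two-sided, on group alone), with Benjamini-Hochberg adjustment over all 9420 and a threshold of 0.05. Standard errors and 95% intervals were derived from the F statistic. DESeq2 1.42.0, limma 3.58.1 (voom) and other settings were alternatives. On simulated counts for this comparison (9139 genes tested), 88.0% of 4-fold rises, 57.1% of 4-fold falls, 14.0% of 2-fold rises and 8.89% of 2-fold falls were recovered, and 10.2% of 88 calls were false.

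Named genes were the 10 members, FLI1, EWSR1, called or up to 2 lowest-p genes of each list, neighbours and genes of like pattern. HTRA1, KAZALD1, FOXO1, FOXO3 and genes at 0 were added after their values were seen. Members and lists were chosen with earlier results of these data known. All 10 members matched the RefSeq promoter table.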

Additional observations from a re-analysis of the deposited data

How the results depend on the processing

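IGFBP5 and IGFBP3 were called higher under each alternative run, so 2 members were higher throughout. IRS2 was the 1 member called lower. That count was 0 with the replicate number as a block, with glmTreat against a 1.5-fold change, at a threshold of 0.01 and in each fit that left out 1 library (0 to 0). Under the block the IRS2 adjusted p was 0.108. Same-numbered libraries did not deviate together (correlations of −0.03, −0.01 and −0.05), so the numbers were not taken to pair libraries. Pathway genes called higher numbered 3 with no low-count filter (IGFBP7, TSC1 and DEPTOR), 2 without both libraries that stood apart, 0 with glmTreat, 0 at a threshold of 0.01 and 0 to 1 without 1 library. Pathway genes called lower numbered 1 with no low-count filter and 1 in DESeq2, EIF4EBP1 both times. Over all genes, 126 were called higher and 11 lower. With no low-count filter 306 were higher and 62 lower, with glmTreat 81 and 1, and at a threshold of 0.01 there were 71 and 1. Without 1 library 64 to 121 were higher and 1 to 7 lower. Lower calls numbered 17 under total counts, 2 under the replicate block, 34 in DESeq2 and 32 without both libraries that stood apart. The causes were not tested. Scaling by total counts shifted the median log2 fold change of all genes by −0.12, and no low-count filter by 0.12, over 18819 genes. The IGFBP2 log2 fold change turned to −0.13 under total counts, and in fits without 1 library it ran from −0.21 to 0.56, at −0.01 without siFLI1 replicate 1, −0.21 without siControl replicate 2 and −0.07 without siControl replicate 3. EWSR1 ran from −0.16 to 0.12 in those fits, and was positive without siControl replicate 2. Low counts limit IGFBP6 (23 in siFLI1, 10 in siControl), IGF1R (40 and 45), IGFBP4 (69 and 36) and IGF2R (51 and 73).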

Other observations

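TSC1, which with TSC2 restrains mTOR complex 1, gave 7.54, 2.93 and 23.9 CPM for siControl replicates 1, 2 and 3, and 12.9, 28.6 and 145 CPM for the siFLI1 replicates. The highest siFLI1 value came from the shallowest library, from 54 counts, and the groups overlapped (log2 fold change 2.33 ± 0.87, SE; edgeR adjusted p = 0.326). DEPTOR, an inhibitor within mTOR complexes, had 0 counts in all 3 siControl libraries and 5, 0 and 11 counts in siFLI1 replicates 1, 2 and 3. Both genes were called only with no low-count filter, and both are named after their values were seen.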
